A study of Mus musculus with 8 samples.

Results

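The transcription factor genes described here shape hepatocytes and bile ducts and were followed in mouse liver: Hhex, Prox1, Onecut1, Onecut2, Gata4, Gata6, Cebpa, Cebpb and Cebpd. They were taken by name from a deposited table of 27110 genes, and all 9 were found there and had enough reads to be tested among 16420 genes. The group was put together after the low Hhex level in LKO livers was known, so the genotype differences of these 9 genes are given as a description, with fold changes and standard errors and no p-value. The study compared total RNA of livers from Fl/Fl mice, with LKO livers, in which Pkd1l1, a polycystin-family membrane protein gene named as a biliary atresia candidate, was deleted only in the liver. All mice were at week 7 and shared the treatment label NT, and the cell type label names hepatocytes and cholangiocytes. Libraries Fl/Fl 5, 7 and 9 and LKO 3, 4, 12 and 13 were from females, and Fl/Fl 10 was from a male. The driver of the deletion and the strain are not given in the sources used here.

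HHEX is a homeobox protein that the liver bud needs to grow out of the foregut and that later stays on in hepatocytes, bile duct cells and endothelium. PROX1 lets hepatoblasts migrate and restrains nuclear receptors in the adult hepatocyte, and the cut-homeobox factors HNF6 (Onecut1) and OC2 (Onecut2) act together in hepatoblasts to time the choice between hepatocyte and bile duct. The zinc-finger factors GATA4 and GATA6 open liver genes in the embryo, and GATA4 also sets the identity of sinusoidal endothelium. C/EBP alpha drives the metabolic genes of the mature hepatocyte, whereas C/EBP beta and delta are induced by cytokines, glucocorticoids and injury.

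The libraries held 71491723 to 76622375 counted reads. Reads of Pkd1l1 numbered 2 in all of LKO, 2 in the female controls together and 0 in the male control, too few to check either genotype label at this depth. Among the libraries, Fl/Fl 5 and 7 stood apart from Fl/Fl 9 in RNA of the immediate early gene Fos and the clock output gene Dbp. Fos was at 297 CPM (read counts divided by scaled library size) in Fl/Fl 5, at 264 CPM in Fl/Fl 7 and at 30.7 CPM in Fl/Fl 9. It was between 4.78 and 12.7 CPM in the male and all LKO libraries. Other immediate early genes went either way. In Fl/Fl 5, 7 and 9, Egr1 was at 822, 534 and 159 CPM, but Myc was at 13.9, 12.6 and 37.0 CPM. The clock output gene Dbp was at 3.50 CPM or less in Fl/Fl 5, Fl/Fl 7, LKO 3 and LKO 4, and at 26.9 CPM or more in the other libraries. Values are therefore given for each library and, where they move, without Fl/Fl 5 and 7.

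Hhex and Onecut1 were lower in each LKO library than in each Fl/Fl library, the male one included, and their promoters are shown for that reason. The sequences are RefSeq's for build GRCm38.p6, read 5′ to 3′ on the plus strand up to the base before the deposited gene start. Hhex is at chr19:37434591-37434809 and Onecut1 at chr9:74861671-74861920. Capitals mark matches to any of 9 motifs searched on both strands in the 250 bases before the RefSeq start.
Hhex: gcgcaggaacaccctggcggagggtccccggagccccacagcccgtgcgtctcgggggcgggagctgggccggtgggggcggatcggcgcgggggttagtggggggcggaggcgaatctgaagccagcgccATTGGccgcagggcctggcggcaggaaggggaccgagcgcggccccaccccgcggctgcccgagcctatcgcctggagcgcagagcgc
Onecut1: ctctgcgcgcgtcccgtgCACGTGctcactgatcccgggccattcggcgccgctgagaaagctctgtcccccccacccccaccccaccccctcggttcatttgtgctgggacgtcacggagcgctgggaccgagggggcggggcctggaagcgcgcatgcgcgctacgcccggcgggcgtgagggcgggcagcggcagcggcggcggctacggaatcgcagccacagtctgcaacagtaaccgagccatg

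The match in Hhex is a CCAAT box on the minus strand, 119 bases before the RefSeq start, a motif held by 33.8% of the 32851 RefSeq promoter windows. The match in Onecut1 is an E-box (CACGTG), 232 bases before the start, held by 6.02% of the windows. None of the windows of Cebpa, Cebpb and Prox1 held any of the 9 motifs. The other motifs were the AP-1 site of the Jun and Fos proteins (TGANTCA), held by 6.75% of all windows, and the cyclic AMP response element (TGACGTCA), held by 1.55%. The C/EBP site searched (TTGCNNAA) was in 9.56% of windows, and the D-box bound by Dbp and its relatives (TTATGTAA) in 0.819%. The serum response element, searched as 1 exact form, was in 0.0609% of windows. The HNF6 site (ATTGATT) was in 2.61% and the GATA site (AGATAA) in 9.99% of all promoter windows of this length. No motif overlapped another in these windows. The 250 bases were 76.0% G or C in Hhex, 71.6% in Onecut1, 81.6% in Cebpb and 66.4% in Cebpa, against a median of 52.4% over all windows. The Prox1 windows were at 56% and 64.8%. For neither were the bases after the start found in a reference transcript (GENCODE) of Prox1. The window at chr1:190169516-190169765 lies within the deposited Prox1 gene, so the lack of motifs there may not describe its promoter. Onecut2, Gata4, Gata6 and Cebpd had no entry.

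Per gene length, the 9 genes covered a wide range of levels. In female Fl/Fl livers Cebpa was the highest, at 154 ± 6.65 FPKM (reads scaled to gene length and library size, as deposited; mean ± SD, n = 3), followed by Cebpb at 125 ± 48.2 FPKM and Hhex at 38.4 ± 10.5 FPKM. Prox1 (13.5 ± 1.61 FPKM), Onecut2 (9.37 ± 0.51), Gata4 (6.25 ± 0.76), Onecut1 (6.13 ± 3.56), Cebpd (3.87 ± 1.01) and Gata6 (1.56 ± 0.31) followed. Neighbours in this order whose values overlapped over the 3 libraries were Cebpa and Cebpb, Gata4 and Onecut1, and Onecut1 and Cebpd. Hhex stood apart from both of its neighbours there, with a lowest value of 30.8 FPKM against a highest Prox1 value of 15.1 FPKM.

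In LKO livers the order by FPKM was Cebpb, Cebpa, Hhex, Prox1, Onecut2, Cebpd, Gata4, Onecut1 and Gata6. Hhex was still the third, at 11.2 ± 3.46 FPKM (SD, n = 4), but its lowest value of 7.503 FPKM was now below the highest Prox1 value of 10.7 FPKM. Cebpd (5.37 ± 0.68 FPKM) moved above Gata4 (4.48 ± 0.43) and Onecut1 (2.19 ± 0.50), and Cebpd and Gata4 overlapped. Onecut1, which overlapped Gata4 in female Fl/Fl, was below it in every LKO library.

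**Figure D1:**
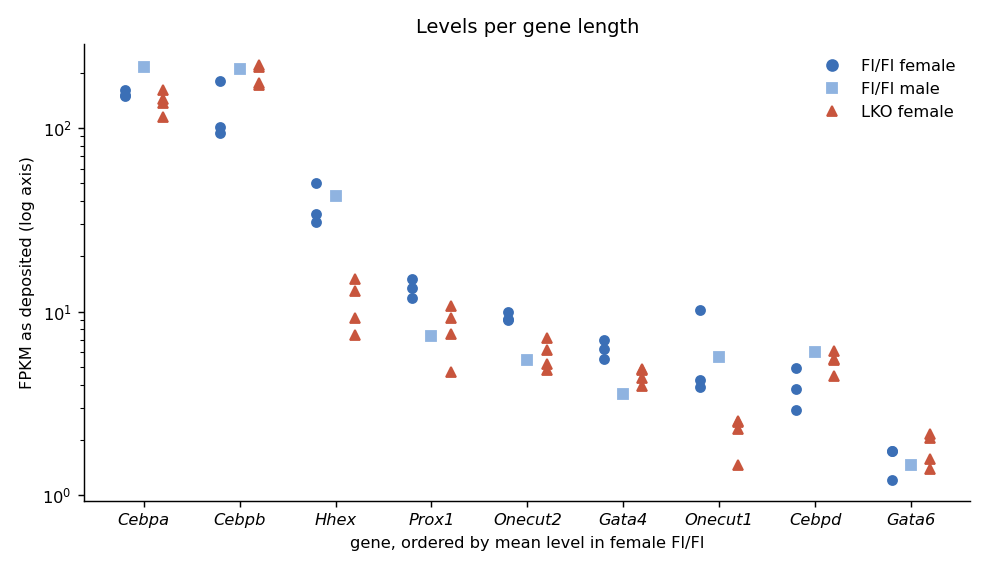
Deposited FPKM (log axis) of each of the 9 genes in each library, with circles for female Fl/Fl, squares for male Fl/Fl and triangles for LKO, ordered by mean level in female Fl/Fl. Cebpa and Cebpb lie between 94.2 and 221 FPKM in all libraries, and Hhex drops from 30.8 to 50.4 FPKM in Fl/Fl to between 7.503 and 15.1 FPKM in LKO.

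Hhex (ENSMUSG00000024986, chromosome 19, 37434810 to 37440731, mm10, plus strand) showed the largest genotype difference of the 9 in the fit of all 8 libraries; without Fl/Fl 5 and 7 that of Onecut1 was larger (log2 -2.22 against -1.46). It was at 63.1, 93.4 and 56.6 CPM in females Fl/Fl 5, 7 and 9, at 78.7 CPM in the male Fl/Fl 10, and at 13.8, 17.0, 24.2 and 27.8 CPM in LKO 3, 4, 12 and 13. The lowest Fl/Fl value was above the highest LKO value, with no overlap over all 8 libraries. The mean was 20.7 ± 6.41 CPM in LKO (SD, n = 4) and 71.1 ± 19.6 CPM in female Fl/Fl (SD, n = 3), a log2 fold change of -1.78 ± 0.28 (SE), or a 3.43-fold lower level.

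The place of the male library sets Hhex apart from most genes that differed. Of the 232 genes called at an adjusted p under 0.05 over all genes (edgeR's quasi-likelihood test, Benjamini-Hochberg), the male Fl/Fl library lay nearer to the LKO mean in 203 and nearer to the female Fl/Fl mean in 29. Hhex was among the 29, and so were the forkhead genes Foxq1 and Foxa1. The male library carries no weight in the fold change. Its Hhex level is from 1 animal and belongs to the data known when the group was chosen, so it is no independent check.

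Within each genotype Hhex also varied with the library. In LKO it was lower in libraries 3 and 4, which had Dbp at 0.606 and 1.64 CPM, than in libraries 12 and 13, which had Dbp at 54.4 and 42.2 CPM. Fl/Fl 5 and 7, also low in Dbp, held 63.1 and 93.4 CPM of Hhex, and Fl/Fl 9 and the male Fl/Fl 10, high in Dbp, held 56.6 and 78.7 CPM. The LKO values were the lower ones among the 4 low-Dbp and among the 4 high-Dbp libraries. With no overlap between the genotypes, any split that holds both would give this. The part of clock state in the Hhex difference was not tested. Without Fl/Fl 5 and 7, which leaves Fl/Fl 9 as the single female control, the Hhex log2 fold change was -1.46.

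**Figure D2:**
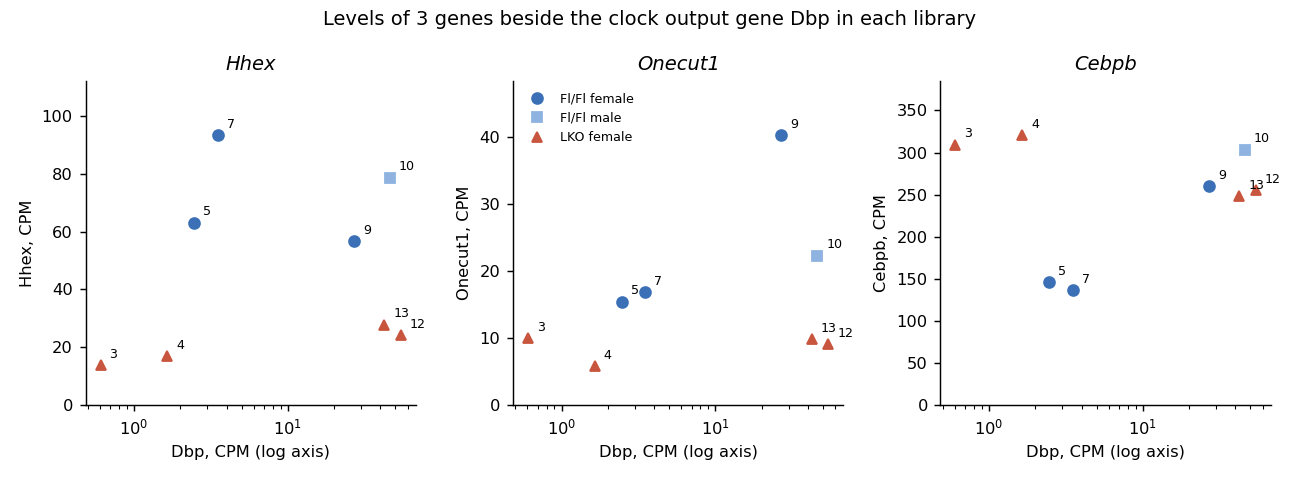
Levels of Hhex, Onecut1 and Cebpb (CPM) against Dbp (CPM, log axis) in each library, numbered by replicate. Hhex and Onecut1 are lower in every LKO library than in every Fl/Fl library, so also at low and at high Dbp. Cebpb is higher in LKO 3 and 4 than in Fl/Fl 5 and 7. It is similar in the 4 libraries with Dbp of 26.9 CPM or more, at 248.6 to 303.5 CPM.

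Onecut1 (chromosome 9, 74861921 to 74891781) had the next largest difference. It was at 15.5, 16.9 and 40.3 CPM in females Fl/Fl 5, 7 and 9, at 22.3 CPM in the male library, and at 9.97, 5.77, 9.10 and 9.86 CPM in LKO 3, 4, 12 and 13. Every LKO value was below every Fl/Fl value, and Fl/Fl 9 was far above the other controls. The log2 fold change was -1.48 ± 0.39, and it depended on the controls used: -0.90 when Fl/Fl 9 was left out and -2.22 when Fl/Fl 5 and 7 were. Onecut1 was not past the threshold with edgeR over all 8 libraries.

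Its paralog Onecut2 (chromosome 18, 64340364 to 64398488) had a smaller difference with less spread. It was at 129, 117 and 117 CPM in Fl/Fl 5, 7 and 9 and at 79.6, 62.3, 67.3 and 92.5 CPM in LKO 3, 4, 12 and 13 (log2 -0.68 ± 0.13). The groups of females did not overlap, but the male library, at 70.1 CPM, lay within the LKO range. On the FPKM scale Onecut2 was at 2.27 to 3.31 times the level of Onecut1 in LKO, and at 2.56, 2.12, 0.891 and 0.964 times in Fl/Fl 5, 7, 9 and 10.

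Prox1 (chromosome 1, 190118035 to 190170714) was at 122, 109 and 95.5 CPM in females Fl/Fl 5, 7 and 9, at 59.2 CPM in the male library and at 86.6, 38.1, 75.2 and 61.2 CPM in LKO 3, 4, 12 and 13. The LKO values were all below the female controls, and the male control was below 3 of the 4 LKO values. The log2 fold change was -0.74 ± 0.26, and LKO 4 was the lowest of the 8. The antisense gene Prox1os overlaps Prox1 and had 2354 reads against 48727 for Prox1, with a log2 fold change of -0.40 ± 0.19. Whether strand was used in counting is not known from the sources used here, so reads of the pair cannot be told apart.

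Of the GATA pair, Gata4 (chromosome 14, 63198922 to 63271692) was at 23.5, 20.7 and 26.2 CPM in females Fl/Fl 5, 7 and 9, at 13.3 CPM in the male library and at 18.0, 14.8, 18.4 and 16.2 CPM in LKO 3, 4, 12 and 13. The females did not overlap, and the male control had the lowest value of all (log2 -0.48 ± 0.11 for LKO over female Fl/Fl, -0.31 with no sex term and -0.65 without Fl/Fl 5 and 7). Gata6 (chromosome 18, 11052508 to 11085635) was at 9.40, 9.37 and 6.47 CPM in females Fl/Fl 5, 7 and 9, at 7.83 CPM in the male library and at 11.6, 11.1, 7.51 and 8.42 CPM in LKO. Its groups overlapped (log2 0.20 ± 0.19), and its higher values in both genotypes were in the low-Dbp libraries Fl/Fl 5 and 7 and LKO 3 and 4. Without Fl/Fl 5 and 7 its log2 fold change was 0.57.

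Cebpa (chromosome 7, 35119293 to 35121928), the most abundant of the 9 in female controls, was at 383, 383 and 409 CPM in Fl/Fl 5, 7 and 9 and at 349, 292, 413 and 367 CPM in LKO 3, 4, 12 and 13. The ranges overlapped (log2 -0.14 ± 0.11). The male library held 543 CPM, above each of the others.

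Cebpb (chromosome 2, 167688915 to 167690418) was at 146, 137 and 260 CPM in females Fl/Fl 5, 7 and 9, at 303.5 CPM in the male library and at 309, 321, 255 and 248.6 CPM in LKO 3, 4, 12 and 13. Its mean was higher in LKO (log2 0.65 ± 0.23), but the groups overlapped, and Fl/Fl 9 and the male library were at LKO levels. Without Fl/Fl 5 and 7 its log2 fold change was 0.11, and without Fl/Fl 9 it was 1.00. Cebpd (chromosome 16, 15887286 to 15891031) had the same order of libraries in Fl/Fl, except that 5 was below 7: 10.5, 13.7 and 17.7 CPM in Fl/Fl 5, 7 and 9, 21.7 CPM in the male library and 19.8, 21.98, 19.8 and 16.0 CPM in LKO. Its log2 fold change was 0.48 ± 0.17, or 0.13 without Fl/Fl 5 and 7.

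Both inducible C/EBP genes overlap protein-coding genes on the minus strand, Tmem189 over Cebpb (5299 reads against 147611 for Cebpb) and Spidr over Cebpd (2978 reads against 10523 for Cebpd). Spidr had a log2 fold change of -0.04 ± 0.14, and Tmem189 one of 0.29 ± 0.18. With strand use not stated, a part of the Cebpd reads may belong to Spidr, and this was not tested. The same holds for Gata6, which a noncoding gene on the minus strand, 1010001N08Rik, overlaps, with 1128 reads against 5365 for Gata6 and a log2 fold change of 0.23 ± 0.25. Antisense Gm45091 over Cebpa had 495 reads against 234439 for Cebpa.

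The balance of the C/EBP factors followed the same split of the controls. On the FPKM scale the ratio of Cebpa to Cebpb was 1.49 and 1.60 in Fl/Fl 5 and 7, 0.896 in Fl/Fl 9, 1.02 in the male library and 0.644, 0.519, 0.923 and 0.842 in LKO 3, 4, 12 and 13. Cebpa was thus the more abundant of the pair in Fl/Fl 5, 7 and 10, and Cebpb was the more abundant in every LKO library and in Fl/Fl 9. The ratio of Hhex to Cebpa was 0.190 to 0.335 in the 4 Fl/Fl libraries and 0.0544 to 0.104 in the 4 LKO libraries. Hhex alone already separated the genotypes, so this ratio adds nothing to the Hhex values.

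**Figure D3:**
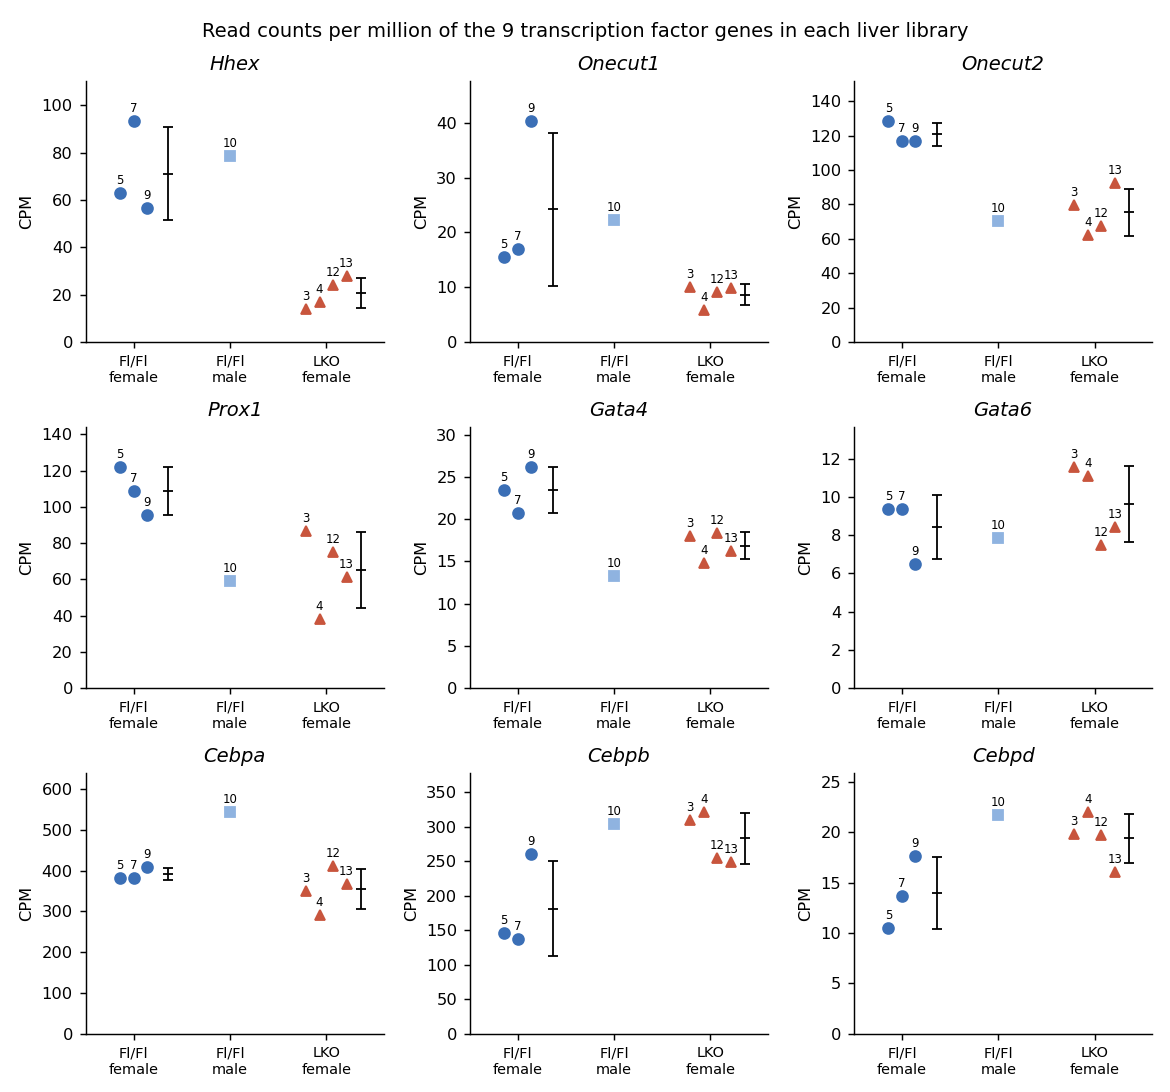
CPM of each of the 9 genes in each library, numbered by replicate, with bars for mean ± SD (n = 3 female Fl/Fl, n = 4 LKO). Hhex and Onecut1 show no overlap between LKO and any Fl/Fl library, Onecut2, Prox1 and Gata4 none among females only, and the remaining 4 genes overlap.

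Counted over the 9 genes, 5 did not overlap between LKO and female Fl/Fl, all with LKO lower (Hhex, Onecut1, Onecut2, Prox1 and Gata4), where 6.22% of all tested genes were lower without overlap, 8.85% higher and 15.1% either. With the male control included, 2 of 9 did not overlap (Hhex and Onecut1), where 2.11% of all tested genes were lower without overlap, 2.33% higher and 4.44% either. By edgeR over all genes 2 of the 9 were called lower, Hhex and Onecut2, and 0 higher, where 0.396% of the tested genes were called lower, 1.02% higher and 1.41% in either direction. At an unadjusted p under 0.05 the count was 7 of 9, beside 16.1% of all tested genes. DESeq2 called 6 of 9, beside 6.24% of the 14183 genes it gave an adjusted p. The median log2 fold change of the 9 was -0.48, beside -0.0032 over all tested genes. The group was chosen on this comparison, so these counts are a description of it alone.

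The counts rest on single libraries. None of the 9 was called when Fl/Fl 5, Fl/Fl 7, LKO 4 or LKO 12 was left out singly, or with no sex term. Over all genes these fits called 4, 37, 47, 141 and 1, in place of 232. Leaving out Fl/Fl 9 gave 5 (Hhex, Onecut1 and Onecut2 lower, Cebpb and Cebpd higher), and 727 over all genes. Without LKO 3 only Hhex of the 9 was called (185 over all genes), and without Fl/Fl 5 and 7 only Onecut1 (26 over all genes). The Hhex log2 fold change itself ranged from -1.96 to -1.54 over the 8 fits that left out 1 library.

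**Figure D4:**
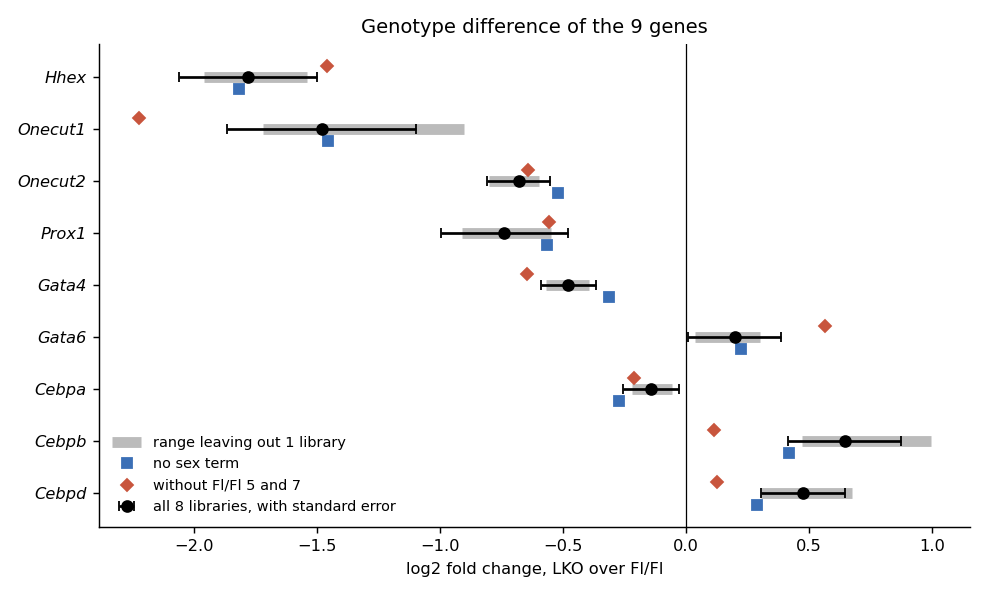
Log2 fold change of LKO over female Fl/Fl for each gene (black points, bars for 1 SE), with the range over 8 fits leaving out 1 library (grey), the fit with no sex term (blue squares) and the fit without Fl/Fl 5 and 7 (red diamonds). Hhex stays between -1.96 and -1.46, Onecut1 spreads from -2.22 to -0.90, and Cebpb and Cebpd come near 0 without Fl/Fl 5 and 7.

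Pairs of the 9 genes varied together to different degrees, given here as Pearson correlations of log2 CPM over 8 libraries that share the genotype difference. Cebpb and Cebpd had the highest, 0.91, and it was 0.79 over the deviations of the 7 female libraries from their group means. Prox1 and Onecut2 (0.83), Onecut2 and Gata4 (0.82) and Prox1 and Gata4 (0.81) came next, with 0.48, 0.15 and 0.57 over the deviations. Hhex and Onecut1 were at 0.75 over the 8 libraries and at -0.18 over the deviations, so their likeness lay between the genotypes and not within them. Hhex and Cebpb were at -0.64 and -0.69.

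Among 11627 protein-coding genes with a mean of at least 1 CPM, the 5 most like Hhex over the 8 libraries were Gcc2 (r = 0.97), Rtraf (0.96), Krcc1 (0.96), Enpp4 (0.96) and Nufip2 (0.95). Gcc2 encodes a golgin of the trans-Golgi network, and its mean was 27.7 ± 1.99 CPM in LKO and 32.2 ± 1.153 CPM in female Fl/Fl. All 5 were lower in each LKO library than in each Fl/Fl library, as were 2.11% of all tested genes. They were picked for likeness to Hhex, which itself did not overlap, so this follows largely from the choice. Their log2 fold changes were far smaller than that of Hhex, from -0.45 to -0.22, and none passed the gene test (adjusted p = 0.104 to 0.272). Over the deviations of the 7 female libraries the closest were Naa35, Erlin2, Zfp141, Cdk7 and Dct (r = 0.98 to 0.99), a different set, and none of these passed either. Of the other 8 factors, Onecut1 ranked 410 and Cebpa 1027 in likeness to Hhex over the 8 libraries.

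The other liver-enriched transcription factors were read from a list, with no test of the list itself. This list and those below were chosen with earlier results of these data known. Their shares of called genes are therefore a description, and the choice of genes may have raised them. Of 25 tested, 1 rose, 2 fell and 22 did not pass (median log2 -0.11; 12% called, beside 1.41% of all tested genes). Foxq1, a forkhead factor, was at 41.3, 25.4 and 55.7 CPM in females Fl/Fl 5, 7 and 9, at 21.1 CPM in the male library and at 4.61, 8.94, 6.56 and 7.38 CPM in LKO 3, 4, 12 and 13 (log2 -2.57 ± 0.31, adjusted p = 0.0195). Foxa1, a pioneer factor that opens liver chromatin, fell from 16.5 ± 1.12 to 10.8 ± 1.47 CPM (adjusted p = 0.0419). The male control was at 16.1 CPM of Foxa1, a level of the female controls. Klf15, a glucocorticoid- and fasting-responsive factor, rose from 210 ± 8.05 to 319 ± 22 CPM (log2 0.60 ± 0.09, adjusted p = 0.0161), and the male control was at 325 CPM.

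Genes for partners of these proteins were read next. Of 9 genes for HHEX-binding proteins, 1 rose and 1 fell (median log2 -0.09; 22.2% called, beside 1.41% of all tested genes). Aes, a short Groucho-family corepressor, rose from 377 ± 23.4 to 517 ± 29.0 CPM (adjusted p = 0.0399), while the full-length Groucho genes Tle1 to Tle4 did not pass. Jun, an AP-1 subunit that HHEX can bind, was at 583.5, 484 and 251 CPM in females Fl/Fl 5, 7 and 9, at 43.9 CPM in the male control and at 109, 70.2, 97.5 and 56.4 CPM in LKO 3, 4, 12 and 13 (log2 -2.40 ± 0.35, adjusted p = 0.0369). Its female groups did not overlap, the male control was the lowest library, and the part of the high Fos in Fl/Fl 5 and 7 in this was not tested. None of 7 genes for PROX1 partners passed (median log2 0.32). The closest were the nuclear receptors Esrra, at 23.0 ± 1.08 against 17.2 ± 1.195 CPM (adjusted p = 0.0521), and Hnf4a, the central hepatocyte factor, at 828 ± 77.5 against 596 ± 60.5 CPM (adjusted p = 0.0646).

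None of 10 further C/EBP, CHOP and Tribbles genes passed (median log2 0.11), among them Trib1, an adaptor for the degradation of C/EBP alpha, at 107 ± 19.7 against 154 ± 51.0 CPM (adjusted p = 0.338) and its paralog Trib3, at 14.8 ± 1.49 against 11 ± 3.07 CPM (adjusted p = 0.265). None of 5 tested genes for other GATA factors and their FOG cofactors passed (median log2 -0.10). The most abundant of them, the cofactor Zfpm1, was at 59.6 ± 11.3 against 63.8 ± 5.35 CPM (adjusted p = 0.791), and Gata3 was at 0.150 ± 0.07 against 0.230 ± 0.08 CPM (adjusted p = 0.603).

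Downstream genes were read in the same way. Of 20 liver genes known as C/EBP targets, Saa1 alone rose, from 7.62 ± 1.90 to 18.7 ± 3.28 CPM (adjusted p = 0.0204). This was 5% called, beside 1.41% of all tested genes, and 19 did not pass. Of the 20 fold changes 17 were positive (median log2 0.19), beside 8122 of all 16420 tested genes. The male control held 932 CPM of Saa1, a serum amyloid gene, and close paralogs make its reads uncertain.

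The next list held 15 genes for signals that induce C/EBP beta and delta and for responses to these signals. Of these, 1 passed (list median log2 -0.12, 6.67% called, beside 1.41% of all tested genes), and 10 of the 15 log2 values were negative. Il6ra, the IL-6 receptor, rose from 62.2 ± 2.45 to 128 ± 21.8 CPM (adjusted p = 0.00881), with the male control at 117 CPM. Socs3, a response gene, went the other way without passing, from 18.8 ± 15.9 to 4.63 ± 0.90 CPM (adjusted p = 0.156). Its Fl/Fl 9 value was 37.1 CPM, and the male control was at 6.16 CPM. The activity of these signals was not tested. Beside 8298 negative log2 values among all 16420 tested genes, hepatoblast and fetal liver genes held 10 among 11 tested (median -0.23), with no call. Their smallest p-values belonged to Afp, the fetal albumin relative, at 2.44 ± 0.44 against 3.65 ± 0.07 CPM (adjusted p = 0.158) and Tbx3, a hepatoblast T-box factor, at 9.89 ± 3.49 against 17.6 ± 1.95 CPM (adjusted p = 0.159).

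Of 24 immediate early genes, Junb (log2 -1.88 ± 0.14, adjusted p = 0.00127) and Jun fell and 22 did not pass (8.33% called, beside 1.41% of all tested genes). A log2 value under 0 was found for 20 of the 24 (median -0.80), beside 8298 of all 16420 tested genes. The male control held 49.9 CPM of Junb, a level of the LKO libraries. None of 17 clock genes passed (median log2 0.21), with Ciart, a clock repressor, at 15.2 ± 5.32 against 4.90 ± 2.55 CPM (adjusted p = 0.148) and Hlf at 49.1 ± 9.30 against 40.1 ± 4.75 CPM (adjusted p = 0.366). The lists were chosen with earlier results known, so their shares are a description alone. Over all lists, with each gene counted once, 4 of 143 rose and 4 fell, or 5.59% beside 1.41% of all tested genes. That count was 25 without Fl/Fl 9, 5 without LKO 4, 4 without Fl/Fl 7, 2 without LKO 13, 1 without Fl/Fl 5 and 0 with no sex term. Junb was called in 8 of the 8 fits that left out 1 library, Il6ra in 7, Saa1 in 6, Foxq1 in 5 and Klf15 in 4, and Aes, Foxa1 and Jun in fewer. When Fl/Fl 5 and 7 were both left out, Foxq1 and Junb were still called lower and none of Klf15, Aes, Saa1, Il6ra, Foxa1 and Jun was called.

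**Figure D5:**
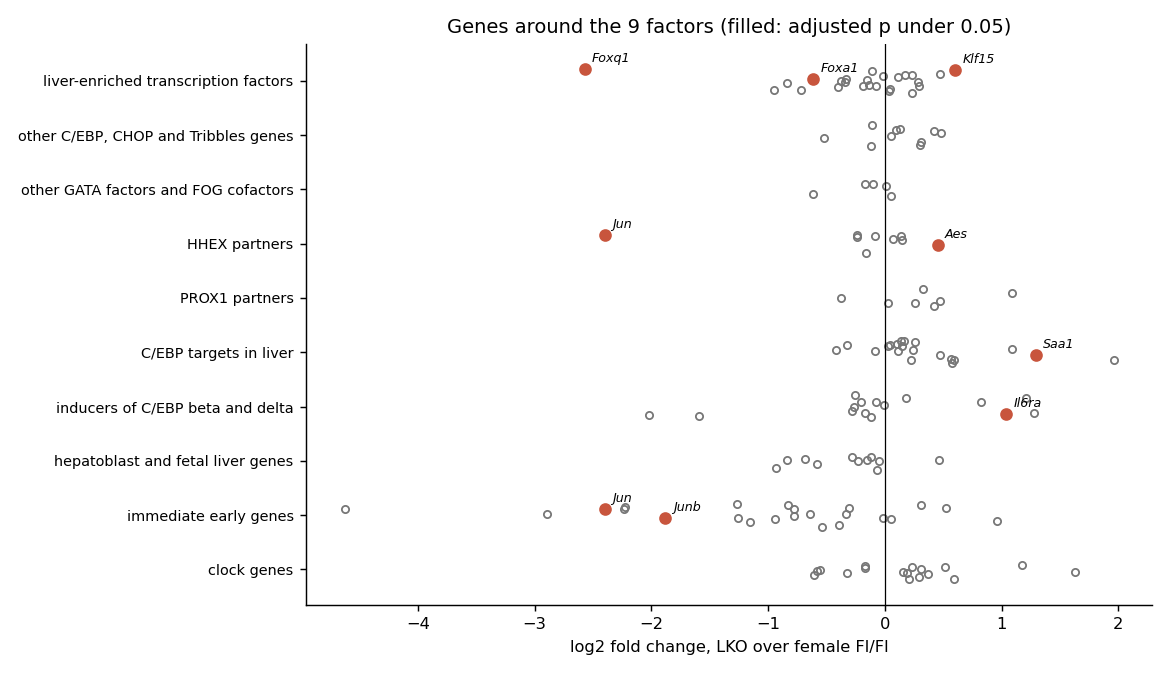
Log2 fold change of LKO over female Fl/Fl for each tested gene of 10 lists around the 9 factors, 1 circle per gene, filled and named where the adjusted p was under 0.05 (edgeR). Filled points are Foxq1, Foxa1, Jun and Junb below 0 and Klf15, Aes, Saa1 and Il6ra above 0, and the immediate early genes spread farthest below 0.

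The tissue label was read against marker genes. The summed level of 8 hepatocyte markers was 121300 to 136500 CPM in LKO, 127400 to 133700 CPM in female Fl/Fl and 83610 CPM in the male control. Most of this sum was Alb, at 55810 CPM in the male control and 102100 to 109300 CPM in female Fl/Fl. Apoa1, Serpina1c, Tat and Hnf4a were higher in the male control than in each female Fl/Fl library. Ttr was lower there, and Cps1 and Cyp2e1 lay within the female Fl/Fl range. The summed level of 10 cholangiocyte markers was 56.4 to 67.5 CPM in LKO, 67.3 to 81.2 CPM in female Fl/Fl and 58.3 CPM in the male control, with 8 of the 10 at 1 CPM or more in at least 1 library. Endothelial markers bear on Hhex and Gata4 because endothelium expresses both. They summed to 433 to 496 CPM over 10 genes in LKO, 409 to 507 CPM in female Fl/Fl and 321 CPM in the male control. Stellate (428 to 517 against 444 to 465 CPM), Kupffer (312 to 396 against 266 to 400 CPM) and lymphatic (55.7 to 69.5 against 43.6 to 73.2 CPM) sums also overlapped between the groups. So did those of neutrophil (9.01 to 15.8 against 6.81 to 18.1 CPM) and erythroid markers (51.3 to 71.8 against 52.0 to 86.6 CPM). The lymphatic sum was almost all Flt4 and Lyve1, and Lyve1 is in the endothelial sum as well. Pdpn was at 0.614 CPM or less in every library and Ccl21a was not listed, so this sum is no separate reading of lymphatic cells. In the male control the stellate sum (287 CPM) was below and the erythroid sum (193.5 CPM) above all female libraries. Its Kupffer (292 CPM), lymphatic (43.8 CPM) and neutrophil (10.2 CPM) sums lay within the female Fl/Fl range.

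No tested marker of these 8 cell types passed the gene test in either direction. The defining endothelial marker Stab2 was at 80.6 ± 2.56 CPM in LKO and 81.4 ± 8.63 CPM in female Fl/Fl. In bulk liver, fewer cells of a type and less RNA per cell cannot be told apart, and the part that cell makeup has in the Hhex difference was not tested.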

How the data were processed

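Total RNA of 8 mouse livers was sequenced from NEBNext Ultra libraries, per the labels' protocols. The submitters' processing notes name fastp, STAR, HTSeq, featureCounts, DESeq, DESeq2, edgeR and the build mm10, with no roles; the sources used here give neither strand setting nor annotation release. Deposited by the authors were read counts per gene and FPKM values, which equal the counts times 1 constant per library over the deposited gene length (other gene properties, such as that length, are the authors' as well).

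Genes were kept by filterByExpr (16420), scaled by TMM and tested with edgeR 4.0.16 in R 4.3.3 (quasi-likelihood F test, robust, terms for genotype and sex, all 8 libraries), with Benjamini-Hochberg adjustment and a threshold of 0.05. With 1 male library the sex term absorbs it. The standard error is the fold change over the square root of F. Levels between genes use FPKM, and likeness uses log2 CPM with a prior count of 2. At this depth 3 reads are worth 0.0385 to 0.0428 CPM in a library, for counting error only. Separate litters or preparation days are not stated, and p-values cover only library-to-library spread, which may be technical. Counts of libraries of the same genotype differed by more than sampling noise in each of 12 pairs (chi-square per degree of freedom of 35.1 or more), so none was counted as a repeat of another.

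The members, lists and alternatives were chosen with earlier results of these data known. Named genes are the 9 factors, the 5 genes most like Hhex by each measure, and from each list up to 4 called genes or else the 2 with the smallest p. The Tle genes, Socs3, Stab2 and other single markers, and the overlapping genes were named after their values were seen. Of 11 lists, 1 is not reported here, though its genes are in the counts over all lists. Alternatives were no sex term, females alone, 2 other scalings, 2 other filters, DESeq2 1.42.0, limma 3.58.1 (voom, and log2(FPKM + 1)), each library left out, Fl/Fl 5 and 7 left out, and thresholds of 0.01 and 0.1.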

Additional observations from a re-analysis of the deposited data

Results flagged for a closer look

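In a group of 4 libraries, a value was singled out where its gap to the nearest other exceeded Dixon's 95% critical value, which chance does in about 1 in 20 groups. Of 78 groups (39 named genes in 2 genotypes), 7 were singled out, and 6 of these are the male library against the 3 female Fl/Fl libraries. Among the 9 factors this was Cebpa alone, at 543 CPM in Fl/Fl 10 against 383 to 409 CPM. The others in Fl/Fl 10 were Klf15 at 325 CPM (204 to 219 CPM in the females), Esrra at 31.0 CPM (16.3 to 18.6), Saa1 at 932 CPM (5.42 to 8.76), Il6ra at 117 CPM (60.3 to 65.0) and Afp at 2.42 CPM (3.60 to 3.74). In LKO, Junb was at 63.2 CPM in library 4 against 43.0 to 44.7 CPM in the other 3. With 1 male, sex and animal cannot be told apart.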

How the results depend on the processing

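The 9 genotype differences kept their sign in each of 18 alternative fits, and 155 of 162 values moved by less than 1 SD between replicates. The 7 that moved further were Onecut1 without Fl/Fl 9 (-0.90), Gata4 with no sex term (-0.31) and, without Fl/Fl 5 and 7, Onecut1 (-2.22), Gata4 (-0.65), Gata6 (0.57), Cebpb (0.11) and Cebpd (0.13). The counts moved more. Over all genes (232), over the 9 factors (2) and over the listed genes (8), they were 1, 0 and 0 with no sex term, 885, 6 and 34 with DESeq2, 26, 1 and 4 without Fl/Fl 5 and 7, 18, 0 and 2 at a threshold of 0.01, and 531, 3 and 21 at 0.1. Log2(FPKM + 1) gave 112, 1 and 7, no filter gave 462, 2 and 12, and voom gave 195, 2 and 14. The 2 factors called with no filter were Gata4 and Onecut2, and Hhex was not called there. Hhex was called in 11 of the 18 alternative fits. Leaving out 1 library gave 4 to 727, 0 to 5 and 1 to 25. At an unadjusted p under 0.05, with no sex term, 1317 genes, 3 factors and 29 listed genes passed. The cause was not tested. Of the 5 genes most like Hhex, 3 were shared when Spearman's rho was used. RPKM from TMM-scaled counts left all 9 factors at the same rank, and adding 50 bases to the promoters gave 3 motif matches in place of 2. No paired analysis was possible because the genotypes share no replicate number. A single male and 3 female controls limit the precision of all values.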
